A study of Mus musculus with 9 samples.

Results

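The enzymes that write, copy, oxidise and excise methylated cytosine in DNA were followed through the RNA of 9 genes: Dnmt1, Uhrf1, Dnmt3a, Dnmt3b, Dnmt3l, Tet1, Tet2, Tet3 and Tdg. They were taken by exact symbol from the deposited tables of counts and of FPKM (fragments scaled by transcript length and library size), and each table held all 9 among its 38197 gene symbols. The study differentiated wild type mouse embryonic stem cells of strain 129, the E14.1 line in its methods, into neural stem cells of the ventral hindbrain. Cells grew in monolayer with retinoic acid (RA) and SAG, an agonist of the Shh signal transducer Smo, from 0 to 3 DDC (days in differentiation conditions) by the labels, and up to a change of medium at 3.5DDC by the study's methods. Cells carrying the surface protein prominin-1 were sorted at 4.5, 5.5 and 6.5DDC, which another field of the labels gives as 4, 5 and 6 days. Each time point had 3 libraries of polyadenylated RNA, 9 in all, and the labels do not say that replicates are separate cultures, so that a p-value measures the spread between these libraries. Replicates 1, 2 and 3 held 17820600, 11244489 and 14390493 counts at 4.5DDC, 25506192, 11573528 and 11066572 at 5.5DDC, and 12851795, 16479971 and 15913820 at 6.5DDC. At these depths 3 counts, taken as the floor of detection, were 0.118 to 0.271 CPM (counts scaled by library size), a floor that covers counting error only.

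Methyl groups on cytosine, mostly where a G follows it in a CpG pair, are copied to the new strand after DNA replication by Dnmt1, which Uhrf1 brings to sites where only the old strand is methylated. Dnmt3a and Dnmt3b set methylation on unmethylated DNA, with Dnmt3l as a partner that has no activity of its own, and Tet enzymes oxidise methylated cytosine so that Tdg and base excision repair can replace it. In the developing nervous system these enzymes take part in silencing genes of stem and germ cells and in the timing of neuron and glia formation. DNA methylation itself was not analysed here.

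Replicate 1 stood apart from replicates 2 and 3 at every time point. On the second principal component of log2 CPM, which held 27.2% of the variance, the replicate 1 libraries scored −23.9, −54.5 and −49.3, and the other 6 libraries lay between 3.12 and 44.6. Values within replicate 1 and within replicates 2 and 3 are therefore given beside most tests of the enzymes. The label of the cells was checked against marker genes. All 13 listed genes of neural progenitors passed the expression filter, with Vim the most abundant at a mean of 1791 FPKM and Sox2 at 82.1, 85.3 and 87.6 FPKM on average at 4.5, 5.5 and 6.5DDC. The summed level of these markers lay between 2303 and 2803 FPKM at 4.5DDC, between 2954 and 3316 FPKM at 5.5DDC and between 3049 and 3249 FPKM at 6.5DDC. Of 15 genes of pluripotent stem cells, 5 passed the filter, and Pou5f1, Dppa5a, Tdgf1, Utf1, Fgf4 and Prdm14 had at most 3 counts in any library. The summed pluripotency genes lay between 4.15 and 8.66 FPKM in the 9 libraries, with Klf4 the most abundant at a mean of 2.26 FPKM. From 4.5DDC to 6.5DDC 0 of the 5 were called by edgeR's quasi-likelihood test, 1 had an unadjusted p under 0.05 (beside 5218 of 14742 genes), and DESeq2 called 1 (beside 24.9% of all genes), limma voom 0 and the fit without replicate 1 of 6.5DDC 1 (20.7%).

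Maintenance of methylation rests on Dnmt1 and Uhrf1. Dnmt1 occupies bases 20907209 to 20959888 of chromosome 9 (GRCm38, minus strand). Replicates 1, 2 and 3 had 55.9, 74.7 and 63.3 FPKM of Dnmt1 at 4.5DDC, 34.1, 43.9 and 50.7 FPKM at 5.5DDC, and 27.0, 21 and 21.5 FPKM at 6.5DDC. Levels at each later time point were below those of all earlier libraries, and replicate 1 was the lowest at 4.5DDC and 5.5DDC and the highest at 6.5DDC. The means were 64.6 ± 9.46 FPKM (SD, n = 3), 42.9 ± 8.31 FPKM and 23.2 ± 3.33 FPKM. In the counts Dnmt1 fell between 4.5DDC and 6.5DDC, with a log2 fold change of −1.48 (SE, standard error, 0.19; adjusted p = 0.00185) that was −0.99 in replicate 1 alone and −1.73 in the other pair of replicates. In bulk samples fewer cells of a type and less RNA per cell cannot be told apart. The call was kept under all 23 alternatives of the processing, with an adjusted p of at most 0.0135 (without replicate 2 of 6.5DDC). The shorter steps, of −0.63 to 5.5DDC (adjusted p = 0.194) and of −0.85 from 5.5DDC (adjusted p = 0.098; −0.26 in replicate 1 alone and −1.14 in the others), did not pass the threshold of 0.05. The second of these passed it under 3 of the 23 alternatives: DESeq2 (0.00394), a block for replicate 1 (0.0344) and the fit of only replicates 2 and 3, chosen after seeing the data (0.0114), in a range from 0.00394 to 0.403.

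Uhrf1, whose protein reads hemimethylated sites and recruits Dnmt1, occupies bases 56303321 to 56323486 of chromosome 17 (plus strand). Its level was 116, 139 and 134 FPKM in replicates 1, 2 and 3 at 4.5DDC, 57.6, 65.0 and 82.9 FPKM at 5.5DDC, and 42.0, 20.9 and 25.9 FPKM at 6.5DDC. Again no library of a later time point reached the level of an earlier one, and replicate 1 moved the least, being lowest at 4.5DDC and highest at 6.5DDC. The mean went from 129 ± 12.2 FPKM (SD, n = 3) through 68.5 ± 13.0 FPKM to 29.6 ± 11.1 FPKM, which is 22.9% of the first. Uhrf1 fell over the whole span with a log2 fold change of −2.36 (SE 0.23, adjusted p = 0.000844), the largest of the 8 genes tested, which was −1.69 in replicate 1 alone and −2.73 in replicates 2 and 3. All 23 alternatives kept this call, with an adjusted p of at most 0.00809. Between 5.5DDC and 6.5DDC Uhrf1 also fell, by a log2 value of −1.43 (SE 0.23, adjusted p = 0.0459), with −0.77 in replicate 1 alone and −1.81 in replicates 2 and 3. That call was kept under 12 of 23 alternatives, with adjusted p between 3.06e-06 and 0.279. It was lost when any library other than replicate 1 of 6.5DDC was left out (adjusted p from 0.0623 without replicate 2 of 4.5DDC to 0.279 without replicate 2 of 6.5DDC), on FPKM (0.0991 and 0.124) and in the fit of 6 libraries (0.121). From 4.5DDC to 5.5DDC the log2 fold change was −0.92 (adjusted p = 0.153), the same in replicate 1 alone as in the others. This step passed the threshold under DESeq2 (0.0103), with the block for replicate 1 (0.0484) and with only replicates 2 and 3 (0.0281), in a range up to 0.422. Of the stretches of 50 bases in the transcripts of Uhrf1, 14.7% also occur in Gm5648, a copy on chromosome X, so that counts of both are uncertain. Gm5648 had 596, 533 and 424 counts at 4.5DDC, 449, 247 and 232 at 5.5DDC, and 86, 63 and 87 at 6.5DDC. Like Uhrf1 it fell, with a log2 fold change of −2.78 for the whole span (adjusted p = 0.000844) and of −1.87 for the second interval (adjusted p = 0.0386). The latter call was kept under 13 of 23 alternatives, with adjusted p up to 0.253, and was lost when any library other than replicate 2 of 4.5DDC or replicate 1 of 6.5DDC was left out.

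**Figure D1:**
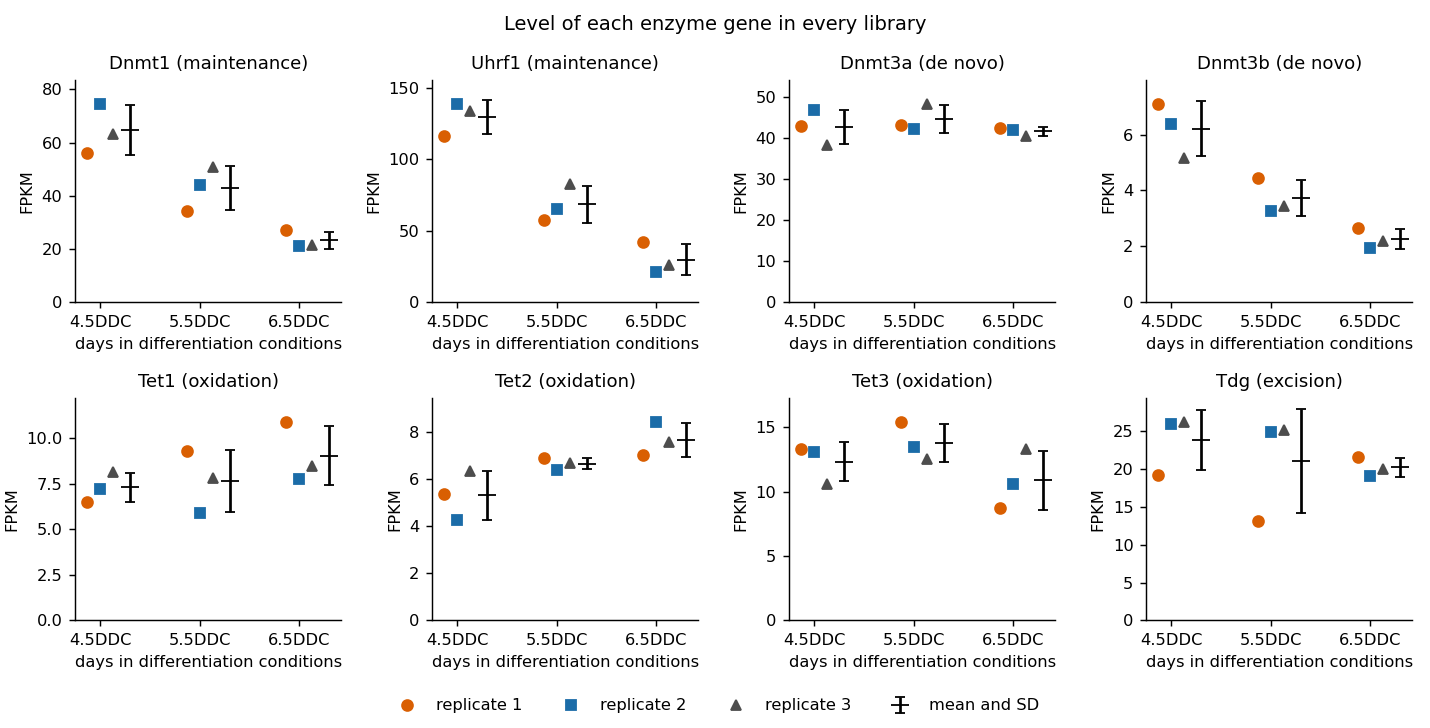
Level in FPKM (vertical axis, from 0) of 8 genes in each of the 9 libraries at 3 time points (horizontal axis; symbols, replicates; black bars, mean ± SD). Uhrf1 went from a mean of 129 to 29.6 FPKM, Dnmt1 from 64.6 to 23.2 FPKM and Dnmt3b from 6.22 to 2.25 FPKM without overlap, while Dnmt3a stayed between 38.3 and 48.4 FPKM.

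De novo methylation is carried out by Dnmt3a and Dnmt3b. Dnmt3b occupies bases 153649450 to 153687730 of chromosome 2 (plus strand). It had 7.12, 6.37 and 5.16 FPKM in replicates 1, 2 and 3 at 4.5DDC, 4.46, 3.28 and 3.45 FPKM at 5.5DDC, and 2.64, 1.94 and 2.17 FPKM at 6.5DDC. The time points did not overlap, and replicate 1 was the highest library at each of them. Its means were 6.22 ± 0.991 FPKM (SD, n = 3), 3.73 ± 0.640 FPKM and 2.25 ± 0.359 FPKM. From 4.5DDC to 6.5DDC Dnmt3b fell, its log2 fold change being −1.48 (SE 0.20, adjusted p = 0.00217), or −1.23 in replicate 1 alone and −1.61 in replicates 2 and 3. This call was kept under all 23 alternatives, with an adjusted p of at most 0.0137. The step to 5.5DDC was −0.81 (adjusted p = 0.153), or −0.55 in replicate 1 alone and −0.96 in the others, and it passed the threshold under 3 of 23 alternatives (0.0109 under DESeq2, 0.0369 with the block for replicate 1 and 0.0477 with only replicates 2 and 3, in a range up to 0.422). The step from 5.5DDC to 6.5DDC was −0.68 (adjusted p = 0.158) and was called by DESeq2 alone (0.0461, in a range up to 0.486). Dnmt3b shares 9.81% of its stretches of 50 bases with its neighbour Dnmt3c, listed in the tables as Gm14490 with at most 3 counts in any library.

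Dnmt3a, the other de novo enzyme and the main one of the developing brain, occupies bases 3806007 to 3914443 of chromosome 12 (plus strand). Its level was 42.9, 46.8 and 38.3 FPKM in replicates 1, 2 and 3 at 4.5DDC, 43.2, 42.1 and 48.4 FPKM at 5.5DDC, and 42.5, 42.0 and 40.4 FPKM at 6.5DDC. These ranges overlapped for each pair of time points, with means of 42.7 ± 4.25 FPKM (SD, n = 3), 44.6 ± 3.39 FPKM and 41.6 ± 1.06 FPKM. The counts of the same libraries, scaled by TMM, gave another picture: 161, 155 and 157 CPM at 4.5DDC, 216, 208 and 200 CPM at 5.5DDC, and 188, 195 and 203 CPM at 6.5DDC. In CPM all 3 libraries of 4.5DDC lay below the other 6. The log2 fold change in counts was 0.40 for the first interval (SE 0.11, adjusted p = 0.165), −0.09 for the second (adjusted p = 0.658) and 0.31 for the whole span (SE 0.11, adjusted p = 0.0666). In replicate 1 alone the whole span gave 0.22, and the others gave 0.35. It passed the threshold under DESeq2 (0.0131) and with a filter of at least 1 CPM in 3 libraries (0.0461), and the sign turned on FPKM (−0.03 with either pseudocount, adjusted p = 0.887 and 0.896). The first step passed it under DESeq2 alone (0.0105, in a range up to 0.877).

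The quotient of CPM and FPKM has the unit of a length, but it also depends on how each program assigned reads to genes, so it is not read here as a transcript length. For Dnmt3a this quotient was between 3350 and 3910 bases in the libraries of 4.5DDC, between 4173 and 5079 at 5.5DDC and between 4195 and 5196 at 6.5DDC. Its log2 change was 0.37 from 4.5DDC to 5.5DDC, above that of 98% of 11709 genes, and 0.34 over the whole span, above 97.5% of them, against a median of −0.01 over all. In both cases the libraries did not overlap (two-sided exact permutation test, p = 0.1, the smallest that 3 libraries against 3 allow). Dnmt3a has 13 coding transcripts in the annotation, between 467 and 9685 bases long, and levels of single transcripts were not analysed here. For the other genes apart from Uhrf1 and Tdg, the same change was between −0.06 and 0.03 in each pair of time points. For Uhrf1 it was −0.24 from 5.5DDC to 6.5DDC, with overlapping libraries (p = 0.2 in the same exact permutation test).

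**Figure D2:**
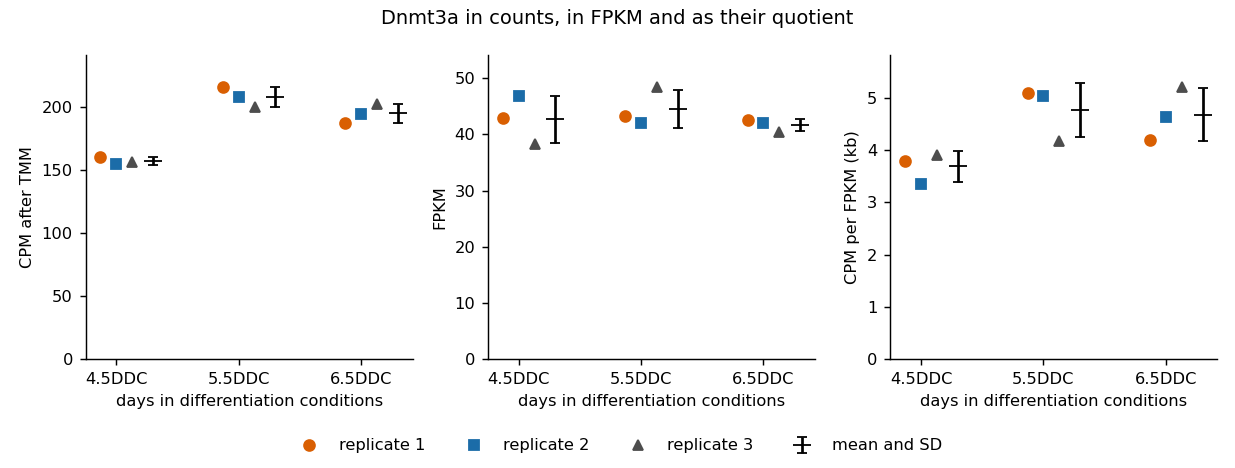
Dnmt3a in each library (symbols, replicates; black bars, mean ± SD of 3 libraries) at 3 time points (horizontal axis), as CPM after TMM, as FPKM and as CPM per FPKM in kilobases, each axis from 0. In CPM the libraries of 4.5DDC (155 to 161) lie below those of 5.5DDC (200 to 216) and 6.5DDC (188 to 203), while in FPKM the time points overlap.

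Dnmt3l, the partner without catalytic activity that marks germ cells and pluripotent stem cells, occupies bases 78041947 to 78063622 of chromosome 10 (plus strand). It had 3 counts in replicate 1 of 4.5DDC, 1 count in replicate 1 of 6.5DDC and 0 counts in the other 7 libraries. No library was thus above the floor of 3 counts, Dnmt3l did not pass the expression filter, and a difference between time points was not detectable at this depth.

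Tet1, Tet2 and Tet3 oxidise methylated cytosine. Tet1, which is abundant in pluripotent stem cells, occupies bases 62804570 to 62908996 of chromosome 10 (minus strand). It had 6.53, 7.23 and 8.15 FPKM in replicates 1, 2 and 3 at 4.5DDC, 9.31, 5.88 and 7.81 FPKM at 5.5DDC, and 10.9, 7.79 and 8.48 FPKM at 6.5DDC. In FPKM all pairs of time points overlapped, with replicate 1 the lowest library at 4.5DDC and the highest later. In CPM the libraries of 6.5DDC (86.9 to 103) lay above those of 5.5DDC (72.0 to 86.1), by a narrow gap (two-sided exact permutation test, p = 0.1). The log2 fold change of its counts was 0.00 from 4.5DDC to 5.5DDC (adjusted p = 0.995), 0.26 for the second interval (adjusted p = 0.395) and 0.26 over the whole span (SE 0.16, adjusted p = 0.266), with 0.27 in replicate 1 alone and 0.28 in the others. The value for the whole span was 0.13 without replicate 2 of 4.5DDC and 0.41 without replicate 3 of 4.5DDC. None of the 23 alternatives called Tet1 in any pair of time points (adjusted p from 0.116 over the whole span).

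Tet2, a relative of Tet1 without the CXXC domain that binds DNA, occupies bases 133463679 to 133545139 of chromosome 3 (minus strand). Replicates 1, 2 and 3 had 5.37, 4.26 and 6.34 FPKM at 4.5DDC, 6.89, 6.41 and 6.68 FPKM at 5.5DDC, and 7.01, 8.43 and 7.57 FPKM at 6.5DDC. In FPKM each later time point lay above the earlier ones, with a gap as narrow as 6.34 against 6.41 FPKM, and in CPM the libraries of 4.5DDC and 5.5DDC overlapped. The means were 5.32 ± 1.04 FPKM (SD, n = 3), 6.66 ± 0.238 FPKM and 7.67 ± 0.716 FPKM. Over the whole span the log2 fold change in counts was 0.50 (SE 0.17, adjusted p = 0.0661), with 0.44 in replicate 1 alone and 0.57 in the others, and it did not pass the threshold. It did so under 4 of 23 alternatives: DESeq2 (0.0414), limma voom without normalization (0.0493), the block for replicate 1 (0.0486) and without replicate 3 of 4.5DDC (0.0296), in a range up to 0.212. The shorter steps were 0.27 (adjusted p = 0.496) and 0.24 (adjusted p = 0.463). The first of them was 0.11 without replicate 2 of 4.5DDC and 0.45 without replicate 3 of 4.5DDC.

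Tet3, which acts in neurons and in the fertilised egg, occupies bases 83362373 to 83459084 of chromosome 6 (minus strand). Its level was 13.3, 13.1 and 10.6 FPKM in replicates 1, 2 and 3 at 4.5DDC, 15.4, 13.5 and 12.5 FPKM at 5.5DDC, and 8.71, 10.6 and 13.3 FPKM at 6.5DDC. The time points overlapped, and replicate 1 was the highest library at 4.5DDC and 5.5DDC and the lowest at 6.5DDC. The log2 fold change over the whole span was −0.20 (SE 0.16, adjusted p = 0.402), with −0.56 in replicate 1 alone and −0.03 in the others. From 5.5DDC to 6.5DDC it was −0.32 (adjusted p = 0.306), with −0.75 in replicate 1 alone and −0.11 in the others. No alternative called Tet3 in any pair of time points.

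Tdg removes oxidised cytosines from DNA, and its gene occupies bases 82629828 to 82650799 of chromosome 10 (plus strand). Its FPKM was 19.2, 26 and 26.2 in replicates 1, 2 and 3 at 4.5DDC, 13.1, 24.9 and 25.1 at 5.5DDC, and 21.6, 19.1 and 20.0 at 6.5DDC. Replicate 1 was the lowest library at 4.5DDC and 5.5DDC, and the time points overlapped. The counts of Tdg were only 30, 17 and 28 at 4.5DDC, 34, 32 and 27 at 5.5DDC, and 19, 23 and 29 at 6.5DDC. Their quotient of CPM and FPKM was 58.2 to 111 bases, below the coding transcripts of 709 to 3502 bases, and its log2 change from 4.5DDC to 5.5DDC, 0.51, was above that of 98.7% of genes. It was −0.42 from 5.5DDC to 6.5DDC, above that of 2.57% of genes, and 0.09 over the whole span. Of the stretches of 50 bases in the transcripts of Tdg, 41.2% occur in other genes: 29.4% in Tdg-ps, 15.8% in Gm9855, 15% in Gm5597 and 5.72% in Glt8d2, which overlaps Tdg on the opposite strand. Gm9855, a copy on chromosome 10, had between 444 and 749 counts in the 9 libraries. It took between 93.3% and 96.8% of the counts of the pair in every library, so that the counts of Tdg alone are uncertain. Over the whole span the log2 fold change was −0.14 for Tdg (SE 0.36, adjusted p = 0.815) and −0.43 for Gm9855 (SE 0.18, adjusted p = 0.124). For Tdg it was 0.29 in the first interval (adjusted p = 0.753), with −0.32 in replicate 1 alone and 0.52 in the others, and −0.43 in the second (adjusted p = 0.536), with 0.23 in replicate 1 alone and −0.66 in the others. The sum of both was 44.9, 38.1 and 33.7 CPM on average at 4.5, 5.5 and 6.5DDC, and the libraries of 6.5DDC lay below those of 4.5DDC (two-sided exact permutation test, p = 0.1).

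Levels per length ordered the genes differently at each time point. At 4.5DDC the order in FPKM was Uhrf1, Dnmt1, Dnmt3a, Tdg, Tet3, Tet1, Dnmt3b, Tet2 and Dnmt3l, and among neighbours the libraries of Tet1 and Dnmt3b and of Dnmt3b and Tet2 overlapped. At 5.5DDC Dnmt3a and Dnmt1 overlapped below Uhrf1, Tdg overlapped with Tet3, Tet1 with Tet2, and Dnmt3b had moved below Tet2. At 6.5DDC the order was Dnmt3a, Uhrf1, Dnmt1, Tdg, Tet3, Tet1, Tet2, Dnmt3b and Dnmt3l, where Dnmt3a and Uhrf1, Uhrf1 and Dnmt1, and Dnmt1 and Tdg overlapped, as did Tet3 and Tet1, and Tet1 and Tet2. The place of Tdg rests on FPKM from at most 34 counts per library, and by CPM at 4.5DDC Tdg (1.73 on average) lay below Tet3 (177), Tet1 (79.5), Tet2 (65.0) and Dnmt3b (26). Dnmt3b lay below Tet2 in every library of 5.5DDC and 6.5DDC. Over the 9 libraries, the mean of Uhrf1 (75.9 FPKM) was above that of 90.5% of the genes tested, that of Dnmt1 (43.6 FPKM) above 81.9%, that of Dnmt3a (42.9 FPKM) above 81.7%, and that of Dnmt3b (4.07 FPKM) above 28.0%.

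Of the 9 genes, 8 passed the expression filter, which kept 14742 genes, and Dnmt3l did not. From 4.5DDC to 5.5DDC edgeR's quasi-likelihood test called 0 of the 8 and 0.0746% of all genes tested, and 4 of the 8 had an unadjusted p under 0.05, beside 2275 of the 14742. DESeq2 called 3 of the 8 (beside 3.8% of all genes), limma voom 0, and the fit of only replicates 2 and 3 called 2 (3.31%). From 5.5DDC to 6.5DDC it called 1 of the 8, Uhrf1, beside 0.224% of all genes, and 3 had an unadjusted p under 0.05, beside 2733 of the 14742. From 4.5DDC to 6.5DDC it called 3 of the 8, Dnmt1, Uhrf1 and Dnmt3b, all lower, beside 18.7% of all genes, of which 9.53% were lower and 9.21% higher. In each pair of time points the libraries of 4 genes did not overlap in FPKM, Dnmt1, Uhrf1 and Dnmt3b lower and Tet2 higher at the later one, beside 23.8%, 24.0% and 34.5% of all genes for 4.5DDC to 5.5DDC, 5.5DDC to 6.5DDC and 4.5DDC to 6.5DDC. A test of any difference between the 3 time points called the same 3 genes, with adjusted p of 0.00676 for Dnmt1, 0.00294 for Uhrf1 and 0.00732 for Dnmt3b, beside 9.63% of all genes. The median log2 fold change of the 8 genes was 0.06, −0.37 and −0.17 in the 3 pairs, beside 0.01, 0.02 and 0.00 over all genes. The change of the first interval and that of the second differed for 0 of the 8 genes and for 0 of all genes (edgeR's quasi-likelihood test, smallest adjusted p = 0.76), with 701 genes at an unadjusted p under 0.05, of which 1, Dnmt3a, was among the 8 (0.0216). The count of all genes called over the whole span was 2763, and it was 1152 without replicate 2 of 4.5DDC and 1125 without replicate 2 of 6.5DDC. When a block for the replicate number was added, the counts of all genes called were 212 for the first interval and 195 for the second, in place of 11 and 33, and 0, 1 and 3 of the 8 genes were called in the 3 pairs.

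**Figure D3:**
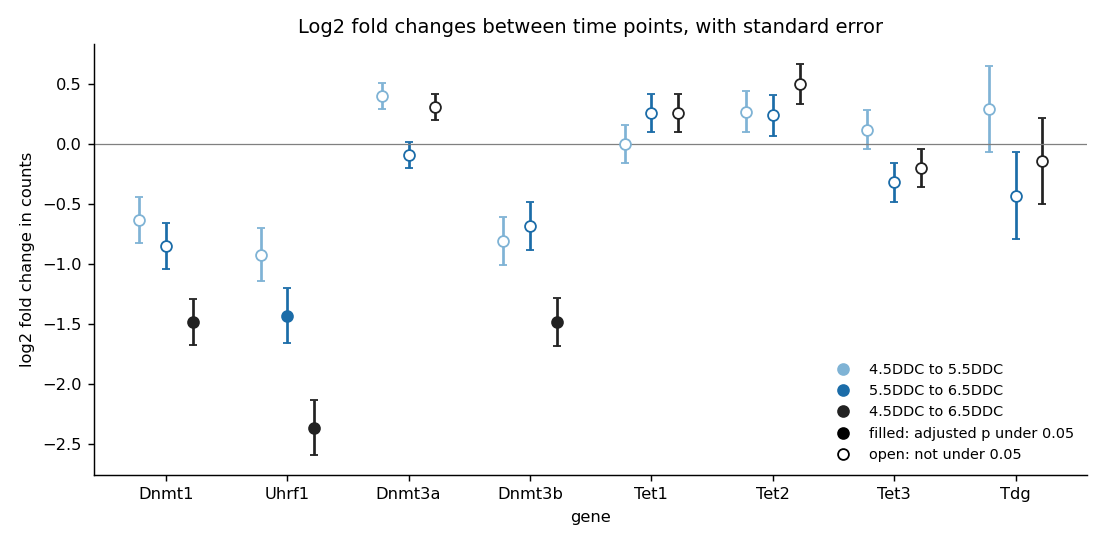
Log2 fold change of the counts (vertical axis) of 8 genes (horizontal axis) between pairs of time points, with the standard error as bars. Filled points passed an adjusted p of 0.05 in edgeR's quasi-likelihood test: Dnmt1 (−1.48), Uhrf1 (−2.36) and Dnmt3b (−1.48) from 4.5DDC to 6.5DDC, and Uhrf1 (−1.43) from 5.5DDC to 6.5DDC.

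Ratios within a library do not depend on how the library is scaled, though they do on the unit. Of these, 4 were compared in 12 two-sided exact permutation tests over libraries, whose smallest possible p is 0.1. Adjusted over the 12, the smallest p found was 0.2. The log2 ratio of Dnmt3a to Dnmt3b was 2.59, 2.88 and 2.89 in replicates 1, 2 and 3 at 4.5DDC, 3.27, 3.68 and 3.81 at 5.5DDC, and 4.01, 4.44 and 4.22 at 6.5DDC. Each later time point lay above the earlier ones, and replicate 1 was the lowest library at each. On average Dnmt3a had 6.90, 12 and 18.7 times the FPKM of Dnmt3b (exact permutation p = 0.1 for each pair). The size of the change depended on the unit. From 4.5DDC to 5.5DDC the log2 ratio changed by 1.23 in CPM against 0.80 in FPKM. From 5.5DDC to 6.5DDC it changed by 0.58 against 0.63, and over the whole span by 1.81 against 1.44. The log2 ratio of Uhrf1 to Dnmt1 was 1.05, 0.90 and 1.08 at 4.5DDC, 0.76, 0.57 and 0.71 at 5.5DDC, and 0.64, −0.01 and 0.27 at 6.5DDC. The libraries of 4.5DDC lay above all others, those of 5.5DDC and 6.5DDC overlapped (exact permutation p = 0.2) although the later value was lower in each of the 3 replicate numbers, and the mean ratio went from 2.01 through 1.60 to 1.23. In CPM these did not overlap, with log2 ratios from −1.18 to −1.0 at 5.5DDC and from −1.89 to −1.51 at 6.5DDC, a difference of −0.62 (exact permutation p = 0.1) against −0.38 in FPKM. The difference in FPKM was −0.55 without replicate 1 of 6.5DDC and −0.23 without replicate 2 of 6.5DDC. For the other 3 ratios, CPM and FPKM gave the same overlaps. The log2 ratio of Tet3 to Tet1 was 1.03, 0.86 and 0.39 at 4.5DDC, 0.72, 1.20 and 0.68 at 5.5DDC, and −0.33, 0.45 and 0.65 at 6.5DDC. The libraries of 6.5DDC lay below those of 5.5DDC, with a narrow gap between 0.65 and 0.68, and overlapped with those of 4.5DDC.

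**Figure D4:**
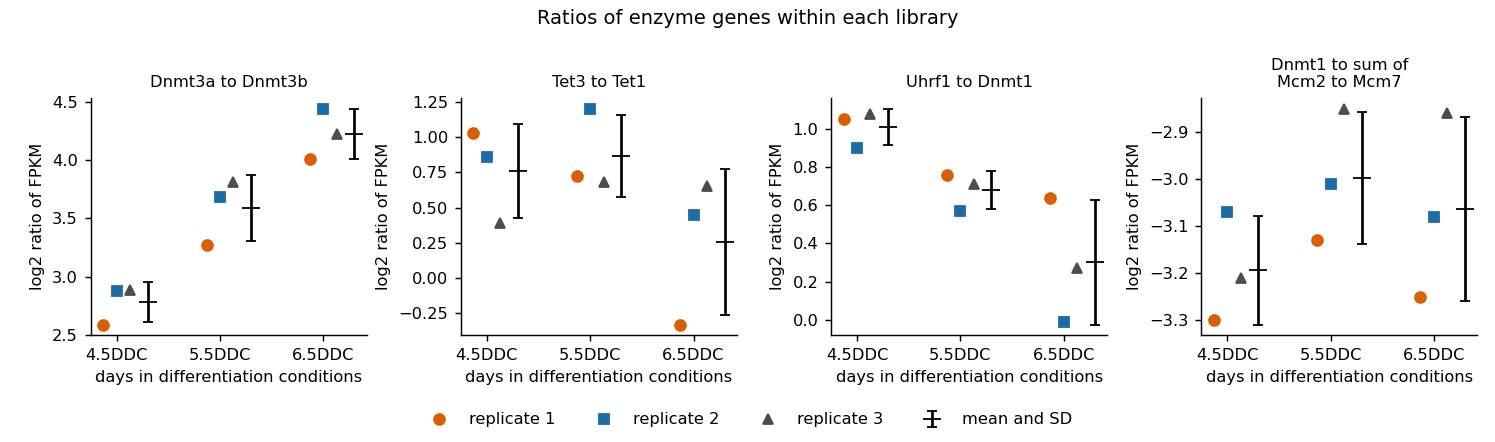
Log2 ratio of FPKM within each library (vertical axis, a scale of its own in each panel) at 3 time points (horizontal axis; symbols, replicates; black bars, mean ± SD of 3 libraries). Dnmt3a to Dnmt3b goes from a mean of 2.79 to 4.22 without overlap, and Dnmt1 to the sum of Mcm2 to Mcm7 overlaps between time points, with means of −3.20, −3.00 and −3.06.

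Dnmt1 and Uhrf1 act at the replication fork, so the RNA of genes used in S phase and in G2 and mitosis was set beside them. Of 20 listed S phase genes, 18 were tested, and 17 of them fell from 4.5DDC to 6.5DDC, beside 9.53% of all genes, with a median log2 fold change of −1.57 for the 18. By adjusted p the first were Mcm7, the most abundant at a mean of 124 FPKM, with −1.62 (adjusted p = 0.0011), Mcm5 with −2.10 and Mcm6 with −1.66 (0.00151 for each), Mcm3 with −1.97 (0.00185), Mcm4 with −1.53 (0.00255) and Fen1 with −1.74 (0.00259). The S phase genes summed to 1127, 1361 and 1348 FPKM in replicates 1, 2 and 3 at 4.5DDC, 599, 809 and 814 FPKM at 5.5DDC, and 597, 423 and 347 FPKM at 6.5DDC. The sum was lowest in replicate 1 at 4.5DDC and 5.5DDC and highest in it at 6.5DDC. This order was seen for Dnmt1, for Uhrf1 and also for the sum of the G2 and mitosis genes given next. All 14 genes of G2 and mitosis, led by Top2a at 230 FPKM (log2 fold change −1.17, adjusted p = 0.0168), fell over the same span, with a median of −1.21 and sums of 1312, 1506 and 1554 FPKM at 4.5DDC, 950, 1128 and 1168 FPKM at 5.5DDC, and 809, 651 and 442 FPKM at 6.5DDC. The first by adjusted p were Aurkb with −1.68 (0.0011), Plk1 with −1.79 (0.00165), Aurka with −1.53 (0.00228), Bub1b with −1.29 (0.0053), Cenpe with −1.19 (0.00623) and Cdc20 with −1.24 (0.00641). Of these calls, 13 of the 17 and 10 of the 14 were kept under all 23 alternatives. As a share of the mean of 4.5DDC, the level at 6.5DDC was 35.9% for Dnmt1, 22.9% for Uhrf1, 36.2% for Dnmt3b, 35.6% for the S phase sum and 43.5% for the G2 and mitosis sum. The log2 ratio of Dnmt1 to the sum of Mcm2 to Mcm7, subunits of the helicase that opens DNA for replication, was −3.30, −3.07 and −3.21 at 4.5DDC, −3.13, −3.01 and −2.85 at 5.5DDC, and −3.25, −3.08 and −2.86 at 6.5DDC. It overlapped between all pairs of time points (exact permutation p = 0.2, 0.7 and 0.5 for 4.5DDC to 5.5DDC, 5.5DDC to 6.5DDC and 4.5DDC to 6.5DDC), and Dnmt1 had 0.109, 0.125 and 0.120 of the FPKM of that sum. From 4.5DDC to 5.5DDC the ratio was higher and from 5.5DDC to 6.5DDC lower in each of the 3 replicate numbers, the latter by as little as −2.85 to −2.86, and these tests of libraries took no account of the number. In CPM the mean change from 5.5DDC to 6.5DDC turned to 0.06, against −0.07 in FPKM. The part of cell cycle genes in the falls of Dnmt1, Uhrf1 and Dnmt3b was not tested.

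**Figure D5:**
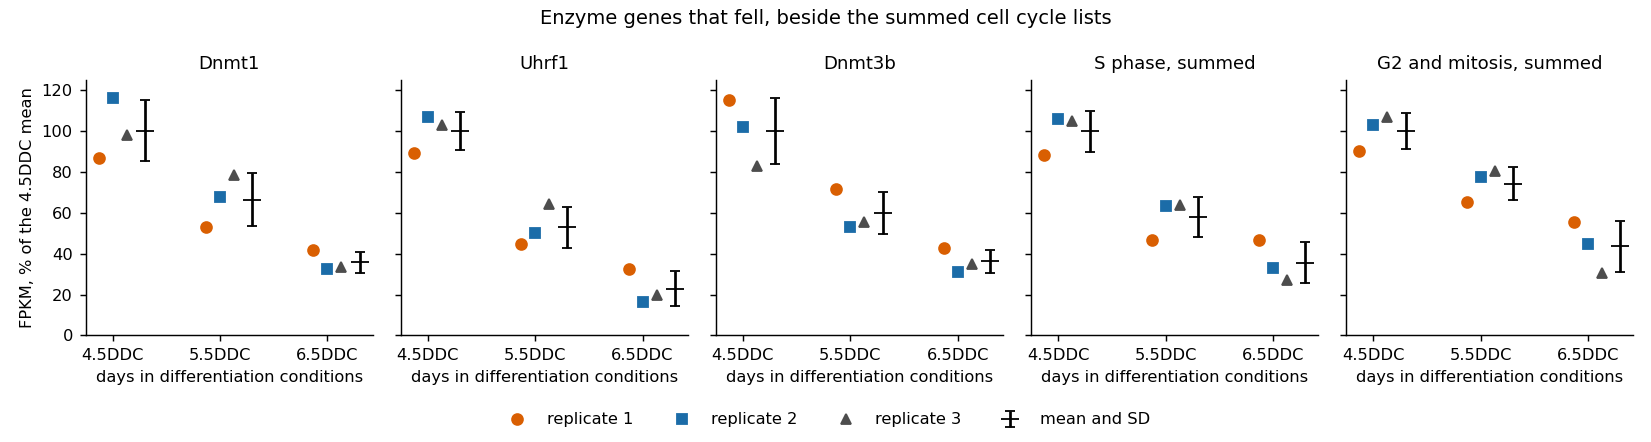
FPKM as a percentage of the mean of 4.5DDC (vertical axis, from 0) for Dnmt1, Uhrf1, Dnmt3b and the summed genes of S phase and of G2 and mitosis, at 3 time points (horizontal axis; symbols, replicates; black bars, mean ± SD of 3 libraries). At 6.5DDC the means were 35.9%, 22.9%, 36.2%, 35.6% and 43.5%.

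Markers of other cells also differed between the time points, and their part in the results was not tested. Over the whole span 9.21% of all genes were called higher and 9.53% lower. Of 12 listed genes of neurons, 11 were tested: Syt1 rose by a log2 value of 3.19 (adjusted p = 0.00133) and Map2 by 1.65 (0.00768), and Isl1 fell by 2.44 (0.00173), all kept under 23 alternatives. The neuronal genes, led by Stmn2 at 108 FPKM, summed to 244, 581 and 406 FPKM at 4.5DDC, 206, 660 and 685 FPKM at 5.5DDC, and 368, 810 and 823 FPKM at 6.5DDC, lowest in replicate 1 at each time point. Of 11 genes of astrocytes and oligodendrocyte precursors, 8 were tested and 5 rose: Slc1a3 by 1.74 (adjusted p = 0.00102), Nfia by 1.96 (0.00151), Aldh1l1 by 2.06 (0.0046), Aqp4 by 1.53 (0.0385) and Slc1a2 by 1.09 (0.0478). All 23 alternatives kept the first 3 of these, while Aqp4 was called under 13 (adjusted p up to 0.131 without replicate 2 of 4.5DDC) and Slc1a2 under 10. The other 3 tested did not pass the threshold: Sox9 at 1.39 (adjusted p = 0.0654) and the oligodendrocyte lineage genes Olig1 at −4.57 (0.0714) and Olig2 at −2.89 (0.115), which had means of 0.875 and 5.00 FPKM at 4.5DDC and of 0.0320 and 0.673 FPKM at 6.5DDC. All 8 had an unadjusted p under 0.05, beside 5218 of all 14742 genes. The sum of the list, led by Slc1a3 at 29.9 FPKM, was 37.8 ± 1.38 FPKM (SD, n = 3), 59.4 ± 5.57 FPKM and 93.7 ± 10.8 FPKM, and S100b had at most 3 counts in any library. Among neural progenitor markers Prom1, the gene of the sorted protein, rose by 1.19 (adjusted p = 0.00363), and Sox3 fell by 1.80 (0.033) and Nkx6-1 by 1.14 (0.022), these last 2 not called without replicate 2 of 4.5DDC (0.125 and 0.0833). Of 5 tested genes of endoderm (10 listed), 0 were called by edgeR's quasi-likelihood test, DESeq2 or limma voom, and 0 had an unadjusted p under 0.05. The replicate block called 3 of them (beside 23.2% of all genes), the block for replicate 1 called 4 (29.7%), and the fits without replicate 1 of 4.5DDC (14.8%) and of only replicates 2 and 3 (31.3%) called 1 each. Their median log2 fold change was 1.35, with Foxa1 the most abundant at 33.5 FPKM. The listed genes of endoderm summed to between 24.2 and 68.9 FPKM, most of it Foxa1. Without Foxa1 the sums lay between 2.68 and 18.3 FPKM. The highest of these was that of replicate 1 of 6.5DDC, and the next was 6.53 FPKM in replicate 1 of 4.5DDC. Of 8 tested genes of neural crest and mesenchyme (10 listed), Twist1 rose by 0.74 (adjusted p = 0.0276, up to 0.0792 without replicate 2 of 6.5DDC), and Dcn, the most abundant at 25.6 FPKM, had 1.85 (0.0891). That is 1 call in 8, beside 9.21% of all genes called higher, while the median was 1.60, 0 of the 8 had a value below 0 and 5 had an unadjusted p under 0.05, beside the same 5218 of all genes. The sum of this list was 23.9 ± 9.66 FPKM (SD, n = 3), 40.2 ± 17.0 FPKM and 87.5 ± 45.3 FPKM, and the defining neural crest genes Sox10 and Foxd3 had at most 3 counts in any library.

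By the correlation of log2 CPM over the 9 libraries among 11995 expressed genes (mean of 2 FPKM or more), the genes most like each enzyme were listed as a description. The libraries share time point, replicate number and depth, so the genes are not independent. Uhrf1 was most like Chaf1a (Pearson r = 0.999), Lig1 (0.999) and Eme1 (0.997). Dnmt1 was most like Pola2 (0.993), Umps (0.990) and Chaf1b (0.989). Chaf1a and Chaf1b encode subunits of a histone chaperone of the replication fork, Lig1 a DNA ligase and Pola2 a subunit of the polymerase that primes DNA synthesis. Dnmt3b was most like Trim71 (0.989), Ube2t (0.985) and Lin28b (0.984), of which Trim71 and Lin28b encode RNA-binding proteins of early development. Dnmt3a had Acot13 (0.971), Pxmp4 (0.957) and Stk36 (0.951) nearest to it. Tet1 was nearest to Map4k3 (0.986), Zfp148 (0.968) and Pias2 (0.966), Tet2 to Asxl2 (0.980), Ptprj (0.978) and L3mbtl3 (0.976), and Tet3 to Rrnad1 (0.978), Smox (0.974) and Spen (0.969). For Tdg the highest values were lower, at 0.888 for Rbm4, 0.880 for Stat2 and 0.869 for Zcchc9. Among the enzymes themselves, r was 0.99 for Dnmt1 with Uhrf1, 0.94 for Uhrf1 with Dnmt3b, 0.90 for Dnmt1 with Dnmt3b and 0.88 for Tet1 with Tet2. It was −0.80 for Uhrf1 with Tet2 and −0.74 for Dnmt3a with Dnmt3b.

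The promoters of Uhrf1, Dnmt1 and Dnmt3b are shown because these genes fell together. RefSeq promoter windows on GRCm38.p6, from 250 bases before a start of transcription to 50 after it, were found for all 9 genes. They were searched on both strands for TTTCCCGC, TTTGGCGC and GGCGGGAA, letters bound by the cell cycle factors of the E2F family, which 1.07%, 0.514% and 2.19% of all 32851 windows hold, and 3.21% hold at least 1 of them. Among the windows of the 9 genes, the first start of Uhrf1 had GGCGGGAA on the minus strand, 48 bases before the start, and the third start of Dnmt1, at 20952623, had TTTGGCGC 33 bases after it. The other windows held none of these letters, the one of Dnmt3b included. A match is a description of the letters, and binding was not analysed here. CpG pairs numbered 12 and 33 in the windows of Uhrf1, 2, 12 and 33 in those of Dnmt1, and 30 in that of Dnmt3b, beside a median of 7.0 over all windows, with 46, 47 and 18 for Dnmt3a, 57 for Tet2, 26 for Tdg, 22 for Tet3, 17 for Tet1 and 6, 4 and 3 for Dnmt3l. The stretches below precede the first start of Uhrf1 (chr17:56303087-56303320, plus strand), the second of Dnmt1 (chr9:20952980-20953229, minus strand) and the start of Dnmt3b (chr2:153649199-153649448, plus strand), without exons, and capitals mark the match in Uhrf1 as read on the strand of the gene.
Uhrf1: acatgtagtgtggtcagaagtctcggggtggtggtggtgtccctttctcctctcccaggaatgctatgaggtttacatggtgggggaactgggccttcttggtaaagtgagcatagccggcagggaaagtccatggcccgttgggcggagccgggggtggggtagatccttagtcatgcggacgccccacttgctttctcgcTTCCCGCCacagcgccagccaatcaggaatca
Dnmt1: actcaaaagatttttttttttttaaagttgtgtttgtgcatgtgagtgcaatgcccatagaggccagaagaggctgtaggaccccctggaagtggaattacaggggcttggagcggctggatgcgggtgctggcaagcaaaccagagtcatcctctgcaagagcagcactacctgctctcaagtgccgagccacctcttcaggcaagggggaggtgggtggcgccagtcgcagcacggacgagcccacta
Dnmt3b: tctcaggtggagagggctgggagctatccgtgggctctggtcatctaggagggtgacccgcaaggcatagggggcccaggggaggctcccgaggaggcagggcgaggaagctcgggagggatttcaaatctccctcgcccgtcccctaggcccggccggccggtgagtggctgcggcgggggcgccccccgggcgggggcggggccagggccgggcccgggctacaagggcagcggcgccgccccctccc

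The other genes of the pathway were taken from fixed lists and are given by their changes from 4.5DDC to 6.5DDC, where the median over all genes was 0.00, with 9.53% called lower and 9.21% higher. Of 15 genes that recruit the enzymes or help to keep methylation, 14 were tested and 7 fell, with a median of −0.48. Cdca7 and Hells, which form a complex that remodels nucleosomes and aids methylation, fell with log2 fold changes of −2.11 (adjusted p = 0.000474) and −1.91 (0.00273), and the related Cdca7l fell by 1.37 (0.00216). Pcna and Lig1 of the replication fork fell with −1.72 (0.00238) and −1.68 (0.000844), and Trim28, a corepressor and the most abundant of the list at 676 FPKM, fell by 0.90 (0.0046). These 6 were kept under all 23 alternatives, and the seventh, Ehmt1, fell by 0.42 (0.0458) and was called under 10, with adjusted p up to 0.485. Dppa3, whose protein keeps Uhrf1 off chromatin, had 0 counts in every library. Cdca7 and Lig1 also fell from 5.5DDC to 6.5DDC, with −1.08 and −1.03 (adjusted p = 0.0459 for each), beside 0.224% of all genes called in this interval. Both calls were kept under 11 of 23 alternatives, with adjusted p up to 0.283, and were lost when any library other than replicate 1 of 6.5DDC was left out.

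Base excision repair completes the exchange of an oxidised cytosine that Tdg has cut out. The 13 genes listed for base excision repair also held glycosylases that start it at other bases, as Ung, which removes uracil. All 13 were tested, and 5 fell and 0 rose, with a median of −0.31. Ung fell by 2.28 (adjusted p = 0.00521), Parp1 by 0.90 (0.00284), Xrcc1 by 1.0 (0.0193) and the glycosylase Neil3 by 0.95 (0.0171). Apex1, the most abundant at 88.6 FPKM, fell by 0.64 (0.027). Ung and Parp1 were kept under all 23 alternatives. Without replicate 2 of 6.5DDC the calls of Xrcc1 (0.0758), Neil3 (0.0664) and Apex1 were lost, and 2 of the list were called. The adjusted p of Apex1 reached 0.102 without replicate 2 of 4.5DDC. For partners of Tet enzymes and factors of active demethylation 13 symbols were listed. Of these, 12 were in the tables, as Idax is another name of the listed Cxxc4. Among the 12, 10 were tested, with a median of 0.13. Of the 10, Idh2, which makes the alpha-ketoglutarate that Tet enzymes need, fell by 0.60 (adjusted p = 0.045), 1 call in 10 beside 18.7% of all genes. That call was kept under 7 of 23 alternatives, with adjusted p up to 0.157. Idh1 was the most abundant at 170 FPKM with a log2 fold change of −0.07 (adjusted p = 0.895).

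Genes listed as readers of methylated CpG pairs, though Mbd3 is known to bind them weakly in mammals, were all 9 tested, with a median of 0.04. Mbd2 rose by 0.54 (adjusted p = 0.0345) and Zbtb4 by 1.53 (0.0192), and Mbd3, the most abundant at 77.6 FPKM, fell by 1.36 (0.0359) and Mbd4 by 0.63 (0.0399). Their calls were kept under 13, 18, 12 and 14 of 23 alternatives in this order, with adjusted p up to 0.122, 0.113, 0.132 and 0.11, and 0 of the 9 genes were called by edgeR's quasi-likelihood test without replicate 2 of 6.5DDC. Uhrf2, a relative of Uhrf1 named after its values were seen, had 71.5, 70.9 and 65.2 FPKM on average at 4.5, 5.5 and 6.5DDC. The log2 fold change of Uhrf2 over the whole span was 0.04 (adjusted p = 0.901), and its difference from that of Uhrf1 was not tested.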

How the data were processed

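RNA of cells sorted for prominin-1 at 3 time points was analysed in 9 libraries, grouped by the times of the paper. The authors mapped reads to GRCm38 with TopHat2 2.0.4 and deposited counts per gene from HTSeq 0.6.1 without normalization. The deposited values of 98 of 38197 symbols, none of the 9 genes among them, were not whole numbers, as in expected or estimated counts, although the tests had been chosen for whole counts, so all were rounded. The authors computed FPKM with Cufflinks 2.1.1, used here as levels. The deposited log2 values, made by the authors with limma voom without normalization, were checked against the counts (largest difference 4.97e-14) and not tested.

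Adjusted p-values come from edgeR 4.0.16 in R 4.3.3 (filterByExpr, TMM factors from 0.951 to 1.04, quasi-likelihood test, 1 fit of 9 libraries with the time point as factor, 6 residual degrees of freedom), with Benjamini-Hochberg adjustment over 14742 genes and a threshold of 0.05. Alternatives were other scalings and filters, limma 3.58.1 with voom or on log2 FPKM, DESeq2 1.42.0, fits of 6 libraries, blocks for the replicate number or for replicate 1, each library left out, and only replicates 2 and 3. Levels and ratios were compared by two-sided exact permutation tests, which cannot give a p under 0.1 with 3 libraries against 3. Tables and figures were made with scipy 1.17.1, pandas 2.3.3, matplotlib 3.10.9 and numpy 2.4.6 under Python 3.11.15, and the fit was tested on simulated data.

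The 9 genes and the 14 lists were chosen with earlier results of these data known. Named from each list are its genes called from 4.5DDC to 6.5DDC, at most 6 in order of adjusted p, its most abundant gene and genes with at most 3 counts in any library, with Ehmt1, Sox2, Sox9, Olig1, Olig2 and Uhrf2 added after their values were seen. For likeness the 3 genes of highest r were named. Replicate numbers come from the labels. After each time point's mean was subtracted, libraries of equal number correlated with 0.743, 0.386 and 0.452 between 4.5DDC and 5.5DDC. Between 5.5DDC and 6.5DDC they correlated with 0.454, 0.367 and 0.197. The rule used for pairing (all above 0.1) was thus met for adjacent time points. Libraries of replicates 2 and 3 were above 0.1 across numbers too. Replicate 2 of 4.5DDC with replicate 3 of 5.5DDC gave 0.291, and replicate 3 of 4.5DDC with replicate 2 of 5.5DDC 0.390. Replicate 2 of 5.5DDC with replicate 3 of 6.5DDC gave 0.225, and replicate 3 of 5.5DDC with replicate 2 of 6.5DDC 0.405. The rule therefore cannot show that replicates 2 and 3 are paired by number. The tests were unpaired as planned, and the block for the number was an alternative. Between 4.5DDC and 6.5DDC libraries of equal number correlated with 0.383, −0.040 and −0.215, and the number was not taken to pair these time points. The annotation release and strand setting of the counting are not named in the paper's text, so reads of copies and of genes overlapping on opposite strands cannot be separated. Of the exonic bases, 6.83% overlap an antisense gene in Tdg, 2.24% in Dnmt3l, 0.799% in Dnmt3a and 0.255% in Tet2.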

Additional observations from a re-analysis of the deposited data

How the results depend on the processing

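Over 23 alternatives, 1 of them (only replicates 2 and 3) chosen after seeing the data, log2 fold changes of the 8 genes passed the threshold newly in 17 cases, lost it in 11 and reversed in 10, and the cause of each was not tested. From 4.5DDC to 5.5DDC, the genes called of the 8 (0) were 3 under DESeq2, 2 with the block for replicate 1 and 2 with only replicates 2 and 3. All genes called (11) were 25 without a filter, 495 under DESeq2, 7 and 6 on log2 FPKM with 1 and 0.1 added, 1 in the fit of 6 libraries, 212 with the replicate block, 484 with the block for replicate 1, 485 with only replicates 2 and 3, and 1 to 28 when 1 library was left out. From 5.5DDC to 6.5DDC, the genes called of the 8 (1) were 3 under DESeq2, 0 on FPKM with either pseudocount and in the fit of 6 libraries, 2 with the block for replicate 1, 2 with only replicates 2 and 3, and 0 to 1 with 1 library left out. All genes called (33) were 55 without TMM, 78 without a filter, 21 with limma voom after TMM, 662 under DESeq2, 21 and 7 on FPKM, 0 in the fit of 6 libraries, 195 with the replicate block, 634 with the block for replicate 1, 728 with only replicates 2 and 3, and 0 to 196 with 1 library left out. From 4.5DDC to 6.5DDC, the genes called of the 8 (3) were 5 under DESeq2 (all genes, 3674), 4 with at least 1 CPM in 3 libraries, with limma voom without normalization and with the block for replicate 1, and 3 to 4 with 1 library left out, and all genes called (2763) were 4382 with the block for replicate 1, 4586 with only replicates 2 and 3 and 1125 to 3132 with 1 library left out. The replicate block changed no call of the 8 genes. Reversed log2 fold changes were those of Tet1 from 4.5DDC to 5.5DDC (−0.13 to 0.15 with 1 library left out, −0.06 with only replicates 2 and 3), of Tdg on FPKM (−0.21 and −0.22 for the first interval, 0.00 for the second with 0.1 added) and of Dnmt3a over the whole span on FPKM (−0.03 with either pseudocount). The change of the ratio of Tet3 to Tet1 from 4.5DDC to 5.5DDC was −0.07 to 0.25 with 1 library left out, and that of Dnmt1 to the sum of Mcm2 to Mcm7 from 5.5DDC to 6.5DDC was 0.06 on CPM and −0.17 to 0.03 with 1 library left out. Called genes named from the lists kept direction in every alternative. A difference in Dnmt3l was not detectable at this depth.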

Other observations

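A list drawn up for the supply of the methyl donor S-adenosylmethionine and the recycling of its product held 13 genes. Ahcyl1 and Ahcyl2 were listed as relatives of Ahcy, and a part of theirs in this supply was not analysed here. Of the 13, 11 were tested from 4.5DDC to 6.5DDC. By edgeR's quasi-likelihood test 5 fell, 1 rose and 5 were not called (beside 9.53% lower and 9.21% higher of all genes). Without replicate 2 of 6.5DDC 3 were called. The median log2 fold change was −0.49, beside 0.00 over all genes. Mthfd1 fell by 1.32 (adjusted p = 0.00494), Shmt1 by 1.78 (0.00641) and Mtr, the methionine synthase, by 0.74 (0.0106), all 3 kept under 23 alternatives. Shmt2 fell by 1.43 (0.0175, and 0.0728 without replicate 2 of 6.5DDC) and Ahcy by 1.22 (0.0341, up to 0.103 over the alternatives), the latter with at most 62 counts in a library. Ahcyl2 rose by 0.72 (0.0151, up to 0.279), and Ahcyl1, the most abundant at 122 FPKM, had a log2 fold change of 0.14 (adjusted p = 0.496). The liver genes Mat1a and Bhmt had at most 3 counts in any library.

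Of 14 genes of the germline that promoter methylation is known to silence in other tissues, 9 were tested, with a median log2 fold change of 0.23 over the whole span. Brdt, which encodes a chromatin reader of the testis, rose by 1.27 (edgeR's quasi-likelihood test, adjusted p = 0.0141, and 0.0594 without replicate 2 of 6.5DDC), 1 call in 9 beside 9.21% of all genes called higher, from a mean of 1.93 FPKM at 4.5DDC through 3.49 FPKM to 5.53 FPKM at 6.5DDC. The summed level of the list was 23.5, 7.68 and 5.66 FPKM in replicates 1, 2 and 3 at 4.5DDC, 17.9, 7.38 and 7.19 FPKM at 5.5DDC, and 28.8, 12.6 and 11.3 FPKM at 6.5DDC. Replicate 1 was the highest library at each time point. Slc25a31 was the most abundant, with a mean of 4.63 FPKM over the 9 libraries, and Hormad1 had at most 3 counts in any library.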
